A study of Mus musculus with 7 samples.

Results

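HDAC1 binding was described at 10 genes of the BMP and TGF-beta response in mouse limb buds, the 4 Id genes (Id1, Id2, Id3 and Id4) and 6 Smad genes (Smad1, Smad5, Smad3, Smad4, Smad6 and Smad7). A peak was counted at a gene when it overlapped the gene body with 20 kb added on each side, by at least 1 bp. By this rule 36 of the 15347 peaks in the list fell at these genes, and each of the 10 genes had at least 1. The Id genes held 16 peaks, the inhibitory Smads (Smad6 and Smad7) held 11 and the other Smads held 9. At each gene 1 or more peaks lay at its own transcription start site (TSS), and Smad7, Smad6, Id3 and Id1 carried peaks among the highest ranked and longest of the whole list.

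HDAC1 is a histone deacetylase that removes acetyl groups from histone tails as a subunit of several corepressor complexes, and it is also found at active promoters. In the limb bud, BMP ligands bind cell surface receptors that phosphorylate the receptor-regulated SMAD1 and SMAD5, while TGF-beta and activin receptors phosphorylate SMAD3, and these proteins enter the nucleus with the common partner SMAD4 to bind DNA. Among the genes that respond most directly to BMP are the Id genes, whose proteins lack a DNA-binding region and hold E proteins away from DNA, and Smad6 and Smad7, whose products feed back to inhibit the pathway. BMP signaling is known in the limb for its roles in digit patterning, in the apical ectodermal ridge and in cell death between the digits.

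The study performed HDAC1 ChIP-seq, in which DNA bound by HDAC1 is recovered with an antibody and sequenced, on wild-type Swiss Webster embryos. Forelimb and hindlimb buds were pooled from embryos at E11.5, with 40 to 44 somites, and each sample came from 3 litters. There were 4 HDAC1 ChIP samples and 3 inputs, which are chromatin sequenced without the antibody step. The processed file used here was 1 ranked list of mm10 intervals for all samples. It holds no height, read count or value for a single sample, so that the depth behind a peak is unknown from it, replicates were not compared and no test was made. Position in the list is therefore the measure of strength used here (position 1 is first), the share of all protein-coding genes or of all peaks serves as the background, and neither gives an error. Because the buds were taken whole, a peak cannot be assigned to a cell type, and the tissue label could not be checked against marker genes, since binding of HDAC1 is not a measure of expression.

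The sequences shown first are those that receptor-regulated SMADs and SMAD4 are known to bind together, because they lay at each of the 4 Id genes and mostly inside HDAC1 peaks. The element searched was GGCGCC, 5 bases of any kind and GTCT, on both strands, here called the paired element. BMP-responsive elements of this kind were defined at Id genes, so their presence there was known beforehand. Each of the 7 runs has 30 bases of GRCm38 (mm10) from RefSeq, 5′ to 3′ on the gene's strand, with the 2 words in capitals, and the number in the name is the distance in bp of the element's first base from the 5′ end of the gene, negative upstream.
Id1 at 3220, chr2:152739464-152739493, plus strand: gtacggaGGCGCCtggctGTCTgggcccgc
Id2 at -1728, chr12:25098846-25098875, minus strand: cgcgcctGGCGCCagagaGTCTgctccggg
Id2 at 4082, chr12:25093036-25093065, minus strand: tttgggtGGCGCCtgctaGTCTgccttggc
Id3 at -2957, chr4:136140533-136140562, plus strand: ccaccctGGCGCCaggctGTCTggggctga
Id3 at 1296, chr4:136144786-136144815, plus strand: cctccctGGCGCCggccaGTCTgcggcatc
Id3 at 4484, chr4:136147974-136148003, plus strand: gttcgctGGCGCCcggatGTCTgagctctg
Id4 at 1662, chr13:48262883-48262912, plus strand: ggtcggtGGCGCCagttaGTCTgcagcgag
The elements Id2 at 4082 and Id4 at 1662 lay outside HDAC1 peaks, 192 and 191 bp from the nearest, and the other 5 lay inside. All 7 read in the direction of their gene. The base after the element was G in 7 of 7, against 37.8% of the 447 paired elements of the genome. The base before it was T in 6 of 7, against 29.3%. G and T are the most common letters at these positions in the 7 runs. This comparison of bases was not planned, and the 447 include the 7. It is therefore a description only.

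To show the surroundings of the elements inside peaks, 200 bases are given for the 4 that lay outside genes. These stretches fell wholly within an HDAC1 peak and held 0 bases of annotated exon. The capitals mark the whole paired element with its 5 middle bases, and any further GGCGCC.
Id1 at 3220, chr2:152739378-152739577, plus strand: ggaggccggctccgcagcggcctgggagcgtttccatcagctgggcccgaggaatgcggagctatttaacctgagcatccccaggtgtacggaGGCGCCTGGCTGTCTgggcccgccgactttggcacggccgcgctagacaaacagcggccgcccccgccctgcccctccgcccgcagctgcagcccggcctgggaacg
Id2 at -1728, chr12:25098761-25098960, minus strand: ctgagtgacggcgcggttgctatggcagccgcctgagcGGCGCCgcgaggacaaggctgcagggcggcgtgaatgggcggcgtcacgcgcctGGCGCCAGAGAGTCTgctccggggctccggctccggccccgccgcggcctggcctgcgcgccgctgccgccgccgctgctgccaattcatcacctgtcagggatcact
Id3 at -2957, chr4:136140447-136140646, plus strand: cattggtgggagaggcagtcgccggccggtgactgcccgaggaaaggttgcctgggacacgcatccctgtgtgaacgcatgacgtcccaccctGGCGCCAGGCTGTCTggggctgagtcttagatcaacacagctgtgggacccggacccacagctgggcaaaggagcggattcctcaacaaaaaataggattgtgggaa
Id3 at 4484, chr4:136147888-136148087, plus strand: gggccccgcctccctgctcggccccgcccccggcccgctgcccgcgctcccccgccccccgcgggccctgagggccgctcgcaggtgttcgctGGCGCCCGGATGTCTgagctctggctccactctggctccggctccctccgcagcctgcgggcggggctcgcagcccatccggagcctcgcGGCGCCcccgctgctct
The stretches at Id2 and at Id3 4484 each held a further GGCGCC.

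The Smad genes held no paired element in their windows. A second SMAD word, the palindrome GTCTAGAC, which reads the same on both strands and is bound by SMAD3 and SMAD4, was found in 2 of the 36 peaks (5.56%), against 83 of all 15347 (0.541%). At Smad6, whose product blocks BMP receptors and SMAD1, it lay across the 5′ end of the gene in an exon that is untranslated there, and the run is shown on the plus strand, opposite to the gene, with the palindrome in capitals.
Smad6 at -4, chr9:64022045-64022074, plus strand: atcatatgccaGTCTAGACactttggcggc
The peak around it was the highest ranked of Smad6, at position 89. The other palindrome in a peak lay at Smad7, -353 bp from its 5′ end, in the peak at position 28. These 2 peaks were the longest of the 36, at 4450 and 6600 bp, and the shares above are not adjusted for length. Per kb of whole peaks there were 0.049 palindromes at these genes, from 2 matches, and 0.00829 in the list. A further 6 palindromes lay in the windows of the 10 genes outside peaks. The 83 in peaks of the list were 0.4% of the 20770 in the genome, near the 0.378% of the genome that peaks cover.

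A peak at each of the 10 genes compares with 59.3% of the 21938 protein-coding genes of GENCODE that have a peak under the same rule. A peak was counted at a TSS when it overlapped the stretch from 2 kb before to 1 kb after the start of a protein-coding transcript, and as distal otherwise. All 10 genes had a peak at their own TSS, against 43.9% of all genes. At 6 of the 10 (Smad7, Smad6, Id3, Id1, Smad3 and Id2) such a peak was in the first 10% of the list, which ends at position 1534, against 6.89% of all genes. The median of the best own-TSS position was 485 for the 10 genes and 5174.5 for the 9630 genes with such a peak, and the median length of that peak was 2000 bp against 650 bp.

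Of the 36 peaks 17 lay at a TSS and 19 (52.8%) were distal, against 29.9% distal in the whole list. Most of the distal peaks were close to their gene, with 14 of the 19 centred within 10 kb of the 5′ end. With the TSS window widened to 5 kb on both sides the distal share was 19.4% at these genes and 22.2% in the list, so that the excess over the list was not found with that window. A distal peak was present at 7 of the 10 genes, against 14.4% of all protein-coding genes. The peaks at a TSS had a median length of 1400 bp and a median position of 2375, against 550 bp and 6369 for all TSS peaks. Of the 17, 11 were among the first 3837 positions, against 3373 of the 10757 in the list. The distal peaks had a median length of 400 bp and a median position of 11208, against 300 bp and 10285.5 for all distal peaks. Of the 19, 2 were among the first 3837, against 464 of the 4590 in the list. The distal peaks thus ranked much as distal peaks of the whole list do. By sequence, 9.5% of the bases in the peaks were coding, 16.9% untranslated exon, 35% intron and 38.5% outside the gene.

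**Figure D1:**
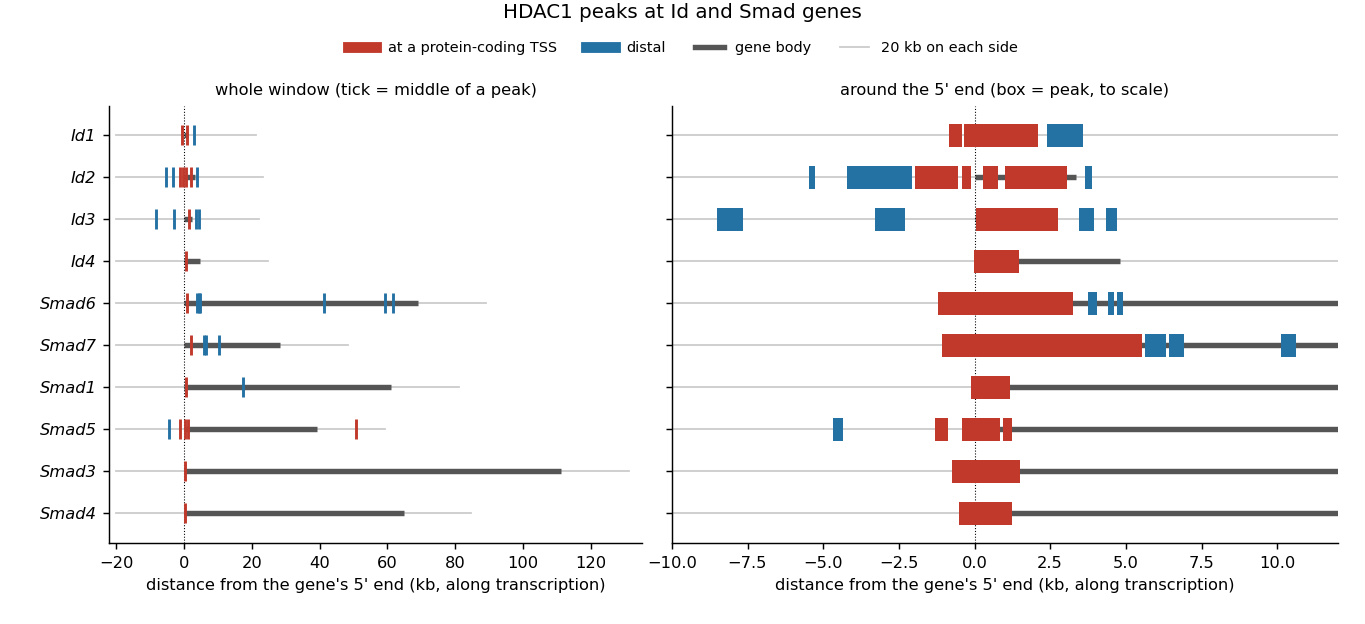
Each row is 1 gene, drawn from its 5′ end (0 kb) in the direction of transcription, with the whole window on the left and the stretch around the 5′ end to scale on the right. Red marks HDAC1 peaks at a protein-coding TSS and blue marks distal peaks, and a row of several peaks is seen at Id1, Id2, Id3, Smad6, Smad7 and Smad5 while Id4, Smad3 and Smad4 have 1 peak each.

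Id1 (chr2:152736251-152737410, plus strand), the most studied direct target of BMP signaling, was covered by HDAC1 peaks over 100% of its body. The main peak had 2450 bp, ran from -351 to 2098 bp of the 5′ end and stood at position 269. A smaller peak of 450 bp lay just upstream, from -851 to -402 bp, at position 11107. The third, 1200 bp long and distal, lay past the 3′ end, from 2399 to 3598 bp, at position 1004, and held the paired element shown above for Id1. This was the highest ranked of the 19 distal peaks.

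Id2 (chr12:25093799-25097140, minus strand), which like the other Id proteins binds E proteins, had 7 peaks and no single dominant one. Upstream lay a peak of 200 bp from -5459 to -5260 bp at position 11660, and a peak of 2150 bp from -4209 to -2060 bp at position 4755, the longest distal peak of the 10 genes. Nearer the gene were a peak of 1400 bp from -1959 to -560 bp at position 666 and a peak of 300 bp from -409 to -110 bp at position 1978. The 1400-bp peak was the best ranked at Id2 and held the paired element at -1728. Within the gene were a peak of 500 bp from 291 to 790 bp at position 13259 and a peak of 2050 bp from 991 to 3040 bp at position 2979. Past the 3′ end lay a peak of 250 bp from 3641 to 3890 bp at position 11208, which stopped 192 bp short of the paired element at 4082. No peak covered the 5′ end of Id2 itself, but the 2050-bp peak covered another annotated protein-coding start of Id2, inside the gene. Of the gene body 76.3% was covered.

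Id3 (chr4:136143497-136145755, plus strand) had 5 peaks, of which 4 were distal. The peak over the gene had 2700 bp, ran from 53 to 2752 bp and stood at position 131, the best rank of the Id genes. It began 53 bp inside the gene, covered 97.7% of the body and held the intronic paired element at 1296. Upstream, a peak of 1000 bp from -3297 to -2298 bp stood at position 1028 and held the element at -2957. A peak of 850 bp farther out, from -8497 to -7648 bp at position 4207, overlapped the TSS window of Gm26001, a small nuclear RNA gene. Downstream were peaks of 500 bp from 3453 to 3952 bp at position 7027 and of 350 bp from 4353 to 4702 bp at position 11343. The last of these held the element at 4484, so that each of the 3 paired elements of Id3 lay in a different peak, with list positions from 131 to 11343.

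Id4 (chr13:48261228-48266026, plus strand) had 1 peak, unlike the other Id genes. It was 1500 bp long, ran from -28 to 1471 bp and stood at position 3528, the lowest rank of the best peaks among the Id genes. It also overlapped the TSS windows of the noncoding genes A330033J07Rik and Gm49291, so the peak cannot be assigned to Id4 alone. It covered 30.7% of the gene and ended 191 bp before the paired element at 1662.

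Smad7 (chr18:75367529-75395935, plus strand), whose product inhibits both the BMP and the TGF-beta branches, had the longest and highest ranked peak of the 36. This peak had 6600 bp, ran from -1079 to 5520 bp and stood at position 28, and it also overlapped the TSS window of the noncoding gene Gm20544. Of the 9630 genes with an own-TSS peak, 25 (0.26%) had one at this position or better. Downstream within the gene lay distal peaks of 700 bp from 5621 to 6320 bp at position 6074, of 500 bp from 6421 to 6920 bp at position 9089, and of 500 bp from 10121 to 10620 bp at position 13392. Rank thus declined with distance from the 5′ end, and the first 3 peaks were 100 bp apart.

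Smad6 (chr9:63953076-64022059, minus strand), the inhibitor that acts mainly on BMP signaling, had a peak of 4450 bp from -1190 to 3259 bp at position 89. An own-TSS peak at this position or better was found at 0.935% of the 9630 genes. In intron sequence downstream were 3 short peaks, of 300 bp from 3760 bp at position 10494, of 200 bp from 4410 bp at position 15057 and of 200 bp from 4710 bp at position 14939. The last 2 were near the end of the list. After 36100 bp without a peak, 3 more intronic peaks followed, of 600 bp from 41010 bp at position 4395, of 200 bp from 59210 bp at position 11333 and of 400 bp from 61560 bp at position 12196. The peak 41010 bp into the gene was the best ranked distal peak of the inhibitory Smads.

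The receptor-regulated and common Smads had a median of 1.5 peaks per gene, against 4 at the Id genes and 5.5 at the inhibitory Smads. Among them Smad5 stood apart with 5 peaks. These counts do not allow for window length, which ran from 41160 bp at Id1 to 151228 bp at Smad3. Per 100 kb of window Id1, Id2, Id3 and Id4 had 7.29, 16.2, 11.8 and 2.23 peaks, and Smad6 and Smad7 had 6.42 and 5.85. Smad5 had 6.3, and Smad1, Smad4 and Smad3 had 1.98, 0.954 and 0.661. Smad3 (chr9:63646767-63757994, minus strand), which carries TGF-beta and activin signals, had 1 peak of 2250 bp from -755 to 1494 bp at position 304, and no peak in the remaining 109733 bp of its body. Smad4 (chr18:73639009-73703780, minus strand), the common partner, had 1 peak of 1750 bp from -519 to 1230 bp at position 1849. At both genes the listed binding was at the start, with no other peak in the window.

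Smad1 (chr8:79338395-79399518, minus strand), a receptor-regulated SMAD of the BMP branch, had a peak of 1300 bp from -131 to 1168 bp at position 2375. A second, intronic peak of 300 bp lay 17319 bp into the gene at position 13318. Smad5 (chr13:56703010-56742377, plus strand), its close relative, had the lowest ranked best peak of the 10 genes, of 1250 bp from -410 to 839 bp at position 3953. Around it lay peaks of 450 bp from -1310 to -861 bp at position 8311, of 300 bp from 940 to 1239 bp at position 10803 and, distal, of 300 bp from -4660 to -4361 bp at position 11782. The 3 peaks nearest the Smad5 start also overlapped the TSS windows of the noncoding genes Gm27271, Gm27301 and Gm27834, and the distal one that of Gm27698. The last peak, of 450 bp at position 13590, lay past the gene at the TSS of Gm45623 and counts as a TSS peak of that gene, not of Smad5.

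By list position the 36 peaks spread over the whole list, with 13, 6, 8 and 9 peaks in 4 successive parts of equal size and a median position of 6550.5, against 7674 for all peaks. Their median length was 500 bp (200 to 6600 bp), against 450 bp for all peaks (100 to 35050 bp). The long peaks set these genes apart from that middle value, since 14 of 36 (38.9%) had 1000 bp or more, against 17.6% of the list. Among peaks at a TSS the shares were 64.7% of 17 and 22.6% of 10757. Median length falls along this list, so the 2 measures are not separate observations.

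**Figure D2:**
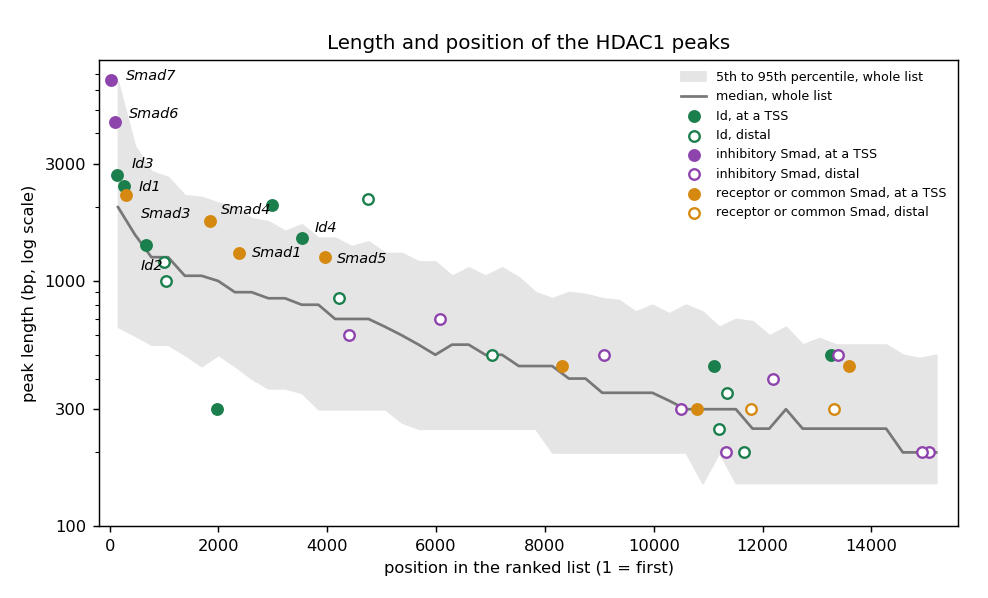
Each point is 1 of the 36 peaks, with its position in the ranked list on the x axis and its length in bp on a log scale on the y axis, filled when at a TSS and open when distal. The grey line and band give the median and the 5th to 95th percentile of the whole list, names mark the best own-TSS peak of each gene, and the peak of Smad7 (position 28, 6600 bp) is at the upper left.

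The 3 roles differed in how their peaks were spread. At the Id genes the median length was 925 bp and the median position 3867.5, and 8 of the 16 peaks were distal. At the inhibitory Smads a long TSS peak was joined by 9 distal peaks out of 11, and the median position was 10494. The other Smads had 2 distal peaks of 9, a median length of 450 bp and a median position of 8311. With 4, 2 and 4 genes in the roles, these values describe the genes named and were not tested.

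Peaks lay close together at 6 of the 10 genes. Within 10 kb of the 5′ end Id2 had 7 peaks, Id3 had 5, Smad6 and Smad5 had 4 each, and Id1 and Smad7 had 3 each, whereas 3 or more peaks there were found at 4.69% of all protein-coding genes. Id4, Smad1, Smad3 and Smad4 had 1 peak each, as did 32.4% of all genes, and 51.8% of genes had none.

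**Figure D3:**
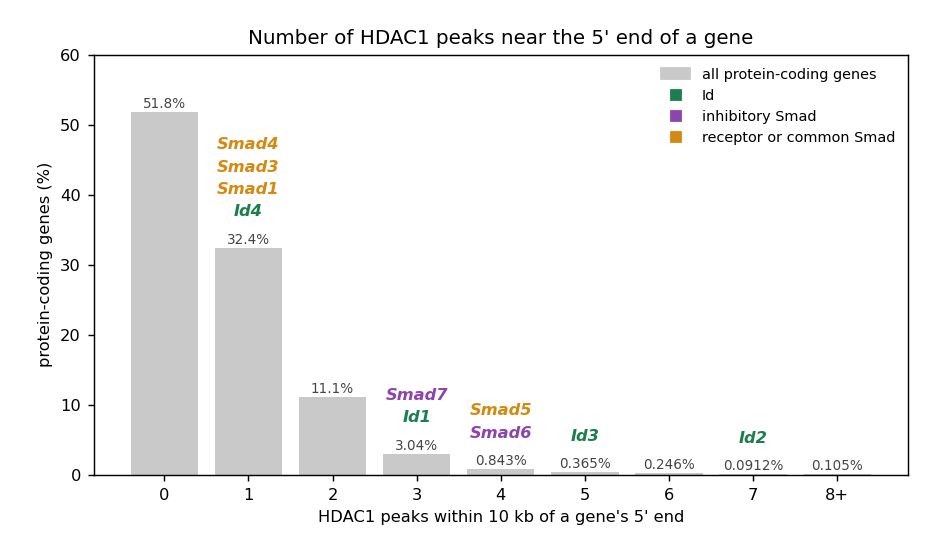
Grey bars give the percent of all protein-coding genes with 0 to 8 or more HDAC1 peaks within 10 kb of the 5′ end, and the names of the 10 genes stand over the bar for their own count, coloured by role. Id2 stands at 7 peaks, shared by 0.0912% of genes, and 4 genes stand at 1 peak.

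The bound length was counted as well, without the gaps between peaks. Within 10 kb of the 5′ end peaks covered 7800 bp at Smad7, 6850 bp at Id2, 5400 bp at Id3, 5150 bp at Smad6 and 4100 bp at Id1. As much or more was covered at 0.173%, 0.26%, 0.397%, 0.456% and 0.807% of all protein-coding genes, in the same order. The lower values were 2300 bp at Smad5, 2250 bp at Smad3, 1750 bp at Smad4, 1500 bp at Id4 and 1300 bp at Smad1, which 11.7% of genes reached. The median was 3200 bp for the 10 genes and 800 bp for the 10566 genes with a peak there.

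Of the 26 gaps between neighbouring peaks of the same gene, 16 (61.5%) were of 1000 bp or less. Over all protein-coding genes, 36.4% of the 8179 gaps between neighbouring peaks in the same gene window were as short. The median gap was 475 bp against 8400 bp, and the smallest, at Id1, was 50 bp. Joined across such gaps, the 36 peaks gave 20 blocks, 6 of them with 3 or more peaks, whereas 4.03% of the 12193 blocks of the list had as many. The Id2 block of 6 peaks spanned 8100 bp and the Smad7 block of 3 peaks spanned 8000 bp, lengths reached by 0.213% and 0.238% of blocks. The block at Smad6 spanned 6100 bp, at Id3 4650 bp, at Id1 4450 bp and at Smad5 2550 bp.

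The main peaks extended into the genes. At 8 genes the best own-TSS peak covered the 5′ end, and between 66.4% and 98.1% of it (median 78.5%) lay downstream, beyond the midpoint at each of the 8. This was also the common arrangement, since the median was 72.3% over 5354 genes and 79.8% of these had more of the peak downstream than upstream. At Id2 the best peak lay upstream of the 5′ end and at Id3 it began inside the gene.

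The paired element was rare in the genome, with 447 copies, or 0.169 per Mb. HDAC1 peaks cover 0.378% of the genome and held 52 of them (11.6%), or 5.19 per Mb. This density is not adjusted for base content. The peaks had a median of 64.3% G and C in the central 300 bp, and whole peaks held 10889 matches to GGCGCC alone. Matches to GGCGCC in the whole genome were not counted, so an excess beyond that word was not tested. The windows of the 4 Id genes held 7 copies of the paired element in 171560 bp and those of the 6 Smad genes held 0 in 613883 bp. Thus 4 of the 10 genes had a copy in their window, against 2.29% of protein-coding genes. All 7 copies lay within 5 kb of the 5′ end of an Id gene, where 0.547% of protein-coding genes have one. A copy inside a peak of the window was found at 3 of the 10 genes (Id1, Id2 and Id3), against 0.356% of all genes.

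Id3 was 1 of 3 protein-coding genes with 3 or more paired elements within 5 kb of the 5′ end. The others, B3galt6 and Sdf4, are both on chromosome 4 with 3 each. They may share the same sites, whose coordinates are not given here. Id2, with 2, was the fourth gene with more than 1. Of the 36 peaks 5 (13.9%) held the element, against 50 of all 15347 (0.326%). The peaks that held it ranged from position 131 to 11343 and from 350 to 2700 bp, so it was found in peaks of both high and low rank. A match to these letters is a description of the sequence and not a measure of SMAD binding, which was not analysed here.

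**Figure D4:**
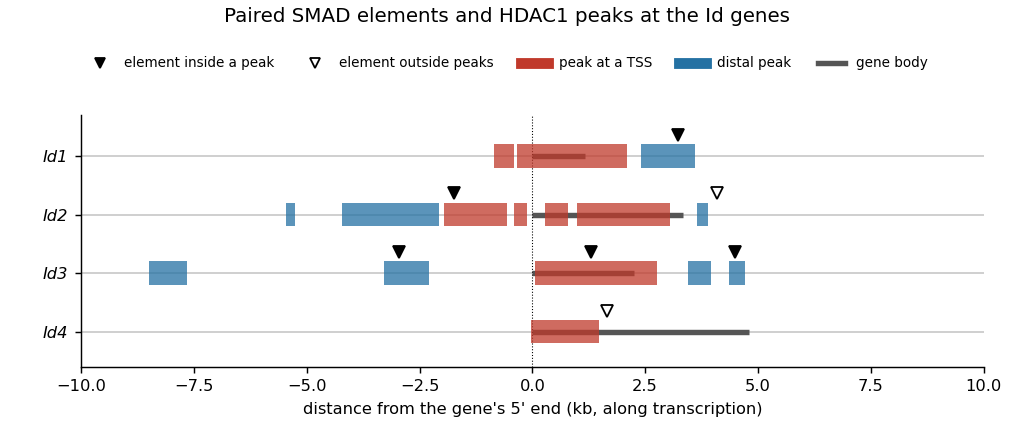
Triangles mark the 7 paired elements at the Id genes by their distance in kb from the 5′ end, filled when inside an HDAC1 peak and open when outside, over the peaks (red at a TSS, blue distal) and the gene body (grey). Of the 7 elements 5 are inside a peak, and the 2 open ones, at Id2 and Id4, lie next to one.

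For shorter words the shares were closer to those of the whole list. Within the central 300 bp of each peak, GGCGCC alone was found in 8 of 36 (22.2%) and in 25.4% of all peaks, and the SMAD box GTCTAG, which is also contained in the palindrome, in 2 of 36 (5.56%) and 6.25%. The paired element, which contains GGCGCC, was found there in 2 of 36 (5.56%, 95% Wilson interval 1.54% to 18.1%), against 0.124%. Elements of this kind were defined at Id genes, so their presence there was known beforehand and this interval is no test. The core CACCCA of the word bound by GLI proteins, the effectors of Hedgehog signaling in the limb, was found in 11 of 36 (30.6%, 18% to 46.9%) and in 19.6% of all peaks. The 2 classes of peaks went opposite ways for this core. It was in 9 of 19 distal peaks (47.4%, 27.3% to 68.3%), against 21% of all distal peaks. At a TSS it was in 2 of 17 (11.8%, 3.29% to 34.3%), against 19%. This difference was not tested. The longer GLI word GACCACCCA was in 0 of the 36 whole peaks and in 99 of all peaks (0.645%). These intervals cover counting error over peaks only, and peaks of the same gene are not independent.

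The peaks at these genes were less rich in G and C than the list, with a median of 55% in the central 300 bp against 64.3%, and a ratio of observed to expected CpG of 0.427 against 0.768. Among peaks at a TSS the medians were 56.7% and 67.7% for GC, and 0.613 and 0.842 for CpG. Distal peaks had 52.3% GC in both sets. The values at single genes were wide, from 85.7% GC in the Smad4 peak and 82% in the main Smad5 peak to 54.3% in the main Id1 peak and 54.7% in the main Smad7 peak, whose centre lies inside the gene.

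Other genes of the pathway were taken from a list of 46. Of these, 44 had a peak in the window and 40 at their own TSS, against 59.3% and 43.9% of all protein-coding genes. At 14 of the 46 an own-TSS peak was in the first 10% of the list, against 6.89% of all genes. At 11 of the 46 there were 3 or more peaks within 10 kb of the 5′ end, against 4.69%. Each share was above that of all genes, so these traits were not particular to the 10 genes. The 2 without a peak were Bmp5, a ligand, and Acvrl1, a receptor known mainly from endothelial cells. Among 11 ligands, Bmp7, one of the BMPs of the limb bud, had 9 peaks, the best at position 752, and 8 ligands had an own-TSS peak. Among 12 receptors, Acvr1, a type I BMP receptor, had the best ranked peak at position 928, and Tgfbr3, an accessory TGF-beta receptor, had the most with 6. Among 8 extracellular modulators, Bmper, a secreted BMP-binding protein, had the best at position 445. The BMP antagonist Chrd and the activin antagonist Fst had 3 peaks each in their windows, of which 0 and 2 were at their own TSS.

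The proteins that act with SMADs or ID proteins in the nucleus were nearer to the 10 genes in rank. Of 10 SMAD partners and regulators 6 had an own-TSS peak in the first 10% of the list, against 6.89% of all protein-coding genes. They were led by Zeb1, a repressor that binds SMADs, at position 48, and Zfp423, a zinc finger partner of BMP SMADs, had 12 peaks. All 3 E proteins, the transcription factors that ID proteins bind, had an own-TSS peak there as well, with Tcf3 at position 324 and Tcf4 with 10 peaks. The remaining Smads had no own-TSS peak in the first 10%, with Smad2 at position 5107 and Smad9 at position 7965. The window of Smad9 held 5 peaks, of which 2 were at its own TSS and 0 were distal. The best ranked of them, at position 1290, thus lay at the TSS of another gene and not of Smad9. The median best own-TSS position by role was 58.5 for the inhibitory Smads, 467.5 for the Id genes, 528 for the E proteins, 1024 for the SMAD partners, 2112 for the receptor and common Smads, 3754.5 for receptors, 4585 for ligands and 4866 for the extracellular modulators. These roles hold 2 to 12 genes each, and their order was not tested.

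The limit of 20 kb left some peaks just outside. The nearest of these were a peak of 200 bp at position 12322, 23280 bp from Smad7 upstream, a peak of 1000 bp at position 76, 26445 bp from Id3 downstream, and a peak of 700 bp at position 2324, 28352 bp from Id1 upstream. The farthest peak counted, the one at the TSS of Gm45623, lay 11223 bp past the end of Smad5, so that no peak was close to the limit on its inner side. With a window of 5 kb on each side 33 peaks were counted, and with 50 kb 46 peaks.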

How the data were processed

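HDAC1 ChIP-seq was performed on 4 ChIP and 3 input samples from E11.5 limb buds. The authors aligned the reads to mm10 (Bowtie2 2.2.5 is named in the submitters' processing notes) and made the peak calls in CisGenome, keeping those under an FDR of 0.05. The deposited list gives chromosome, start and end per peak, for all samples together. Its columns therefore hold genome positions with no read count, and list order was taken as the rank. Starts were read as 1-based with both ends included. A start counted from 0 would shift each by 1 bp.

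Peaks were assigned to genes with the GENCODE M21 basic annotation, and words were searched in GRCm38 RefSeq sequence on both strands, with Python 3.11.15, numpy 2.4.6, pandas 2.3.3 and matplotlib 3.10.9. Overlap, merging and word search were tested on simulated data. No test was made, since the list holds no value per sample. The members and the gene lists were chosen with earlier results of these data known. The genes named were the 10 genes, genes whose TSS a peak of theirs overlapped and, by role in the pathway list, those with the best ranked peak, the most peaks or none. B3galt6 and Sdf4 were named after their values were seen.

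Alternatives were windows of 5 and 50 kb, a TSS window of 5 kb, TSS of all transcripts, merging of peaks up to 1000 bp apart, the first part of the list to position 7674, a larger minimum overlap, and whole peaks in place of 300 bp. The search of whole windows and of the genome, GTCTAGAC and GACCACCCA were chosen after seeing the data. The comparison of the bases next to the paired element was not planned beforehand.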

Additional observations from a re-analysis of the deposited data

How the results depend on the processing

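All 10 genes kept a peak in the window and at their own TSS under the 7 alternatives for windows, TSS, merging, list and overlap. Of 56 recomputed values, 44 stayed within 1.5 times the value reported or, for the distal share, within its 95% Wilson interval. Many of these were bound to stay and are no sign of stability. A changed TSS window or TSS set cannot alter the peaks counted in the windows, their positions or their lengths. Wider windows or merging cannot remove a peak at a TSS. The larger minimum overlap left each value as it was. The values that moved were as follows. The distal share, 52.8%, was 19.4% with a TSS window of 5 kb (22.2% in the list) and 36.8% in the list to position 7674 (17.7%). Merging gave 20 peaks, a median position of 3740.5 and a median length of 1150 bp, against 6561 and 650 bp for the merged list. The list to position 7674 gave 19 peaks, 1978 and 1400 bp, against 3837.5 and 750 bp for all peaks of that part. The ratio of the share of peaks with a word to that of all peaks was 44.8 for the paired element and 23.5 as matches per kb of whole peaks, and rests on 2 and 5 peaks. For the SMAD box it was 0.89, against 1.37 per kb and 5.91 for the palindrome, and for the GLI core 1.56, against 0 for the longer word. The cause of these changes was not tested, beyond what fewer peaks or longer words bring by construction. No paired analysis was possible because the processed file used here is 1 list for all samples, and for the same reason no sample was left out. Depth is unknown, so the absence of a peak is not absence of binding.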
